A study of Penicillium oxalicum with 6 samples.

Results

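In Penicillium oxalicum, a filamentous fungus that secretes enzymes which degrade plant polysaccharides, a stretch of neighbouring genes on chromosome VI was much less abundant in a POX_a00954 mutant than in the strain PoxKu70. The stretch is described here from POX_f08105 to POX_f08140, which covers a block of lower transcripts, POX_f08114 to POX_f08130, and the locus-tag numbers on either side of it. Of these 36 numbers, 35 were gene IDs in the data, out of 9822 IDs in all, and POX_f08112 was not among them. The block held 17 IDs, the left flank 8 and the right flank 10. The block was singled out because its genes were lower in the mutant, so every difference between the strains given below for these 35 IDs is a description and carries no p-value.

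The study measured poly(A) RNA of mycelium by sequencing, as FPKM (fragment numbers scaled to transcript length and to the size of the library), in 3 libraries of each strain. Spores came from plates kept for 4 days at 28 °C, and both strains then grew for 24 h on glucose and for 24 h in a medium whose only carbon source was raw starch. The labels give the genotype of PoxKu70 as wild type; its name is that of Ku70, a DNA end-joining protein whose loss is commonly used to ease gene replacement in fungi. For the other strain they give a mutation of POX_a00954, a transcription factor gene in the series title, and state neither the altered part of the gene nor the number of clones. They do not say whether libraries came from separate cultures, so the spread between libraries may be technical. In bulk RNA, fewer cells that express a gene and less RNA per cell cannot be told apart.

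In filamentous fungi, genes that act in one pathway often lie side by side, for example those for a secondary metabolite or for the use of one nutrient. Such clusters are typically switched on and off together, by a transcription factor encoded in or outside the cluster and by the state of the chromatin. Members of one cluster can nevertheless differ widely in level, and a gene that takes no part in the pathway can lie between them. No product or gene name is assigned to any of the 35 IDs in the sources used here, so each is described by its locus tag and its level. In the RefSeq table of strain HP7-1 (assembly ASM172317v3), 34 of the 35 IDs are listed, all as protein-coding genes of chromosome VI in the order of their numbers; POX_f08109 is not listed.

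The mutated gene was lower in the mutant but not absent. POX_a00954 was at 716, 679 and 842 FPKM in PoxKu70 and at 283, 275 and 441 FPKM in the mutant. Its log2 change was -1.19 with an SE of 0.20 (limma, adjusted p = 0.0014), and the mutant kept 44.7% of the PoxKu70 mean. A change of this size was common: 14.1% of all tested genes were called lower by at least 1 log2 unit, so the level of POX_a00954 is a weak check of the labels. Differences between the strains were very common. Of 8448 genes tested, which averaged at least 1 FPKM, 60.5% passed a Benjamini-Hochberg adjusted p of 0.05 in limma (here "called"), 30.0% as lower and 30.5% as higher in the mutant. The FPKM sums over all genes ranged from 1025654 to 1076733 in PoxKu70 and from 1338218 to 1409899 in the mutant. The number of reads is not given. Depth relative to mutant replicate 1 was estimated as the most frequent ratio between low values. It was 1.66, 1.89 and 1.49 for PoxKu70 replicates 1 to 3 and 1.41 and 1.15 for mutant replicates 2 and 3. These estimates are rough. The ratio was that of 6 of 29, 15 of 32 and 5 of 17 genes for the PoxKu70 libraries. For the mutant libraries it was that of 8 of 45 and 12 of 49 genes.

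All 16 block IDs that could be tested were called lower in the mutant, against the 30.0% of all tested genes named above, from which nothing is read because the block was chosen by this contrast. Their log2 changes, on the log2(FPKM + 1) scale, ranged from -5.82 to -1.39 with a median of -2.83, where the median of all tested genes was -0.0089. Each of the 16 had its 3 mutant libraries below its 3 PoxKu70 libraries, as did 33.7% of all tested genes. The seventeenth ID, POX_f08116, was listed at 0 in 5 libraries and at 0.28 FPKM in PoxKu70 replicate 2, so the block contains a gene that was nearly silent in both strains. The summed level of the block was 1189, 1039 and 1246 FPKM in PoxKu70 and 179, 182 and 229 FPKM in the mutant. The mutant thus kept 17.0% of the PoxKu70 mean, 197 ± 28.2 against 1158 ± 107 FPKM (SD, n = 3 each). The block made up 0.0965% to 0.117% of all FPKM in PoxKu70 libraries and 0.0130% to 0.0162% in mutant libraries.

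**Figure D1:**
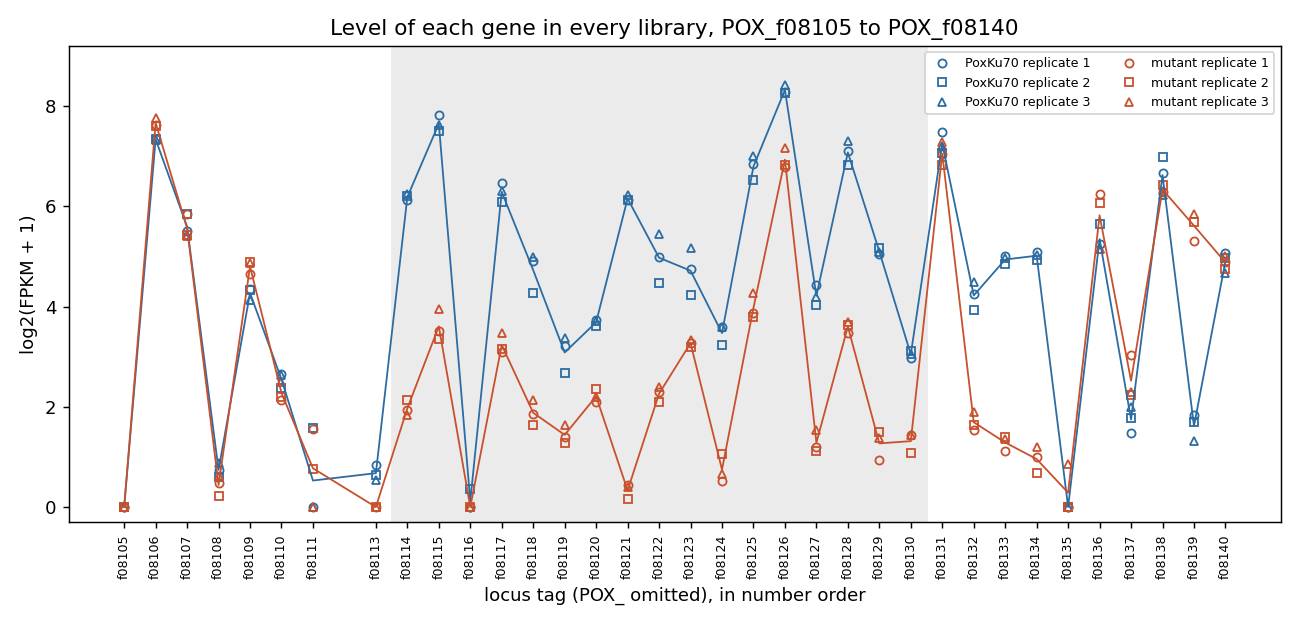
Level of each of the 35 genes in every library, as log2(FPKM + 1), in the order of locus-tag numbers; symbols are single libraries (blue PoxKu70, red mutant), lines join the means of the 3 libraries of a strain, and the block is shaded. The lines run together in the left flank, part over the block, meet again at POX_f08131 and part once more over POX_f08132 to POX_f08134.

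The levels of the block genes differed widely in PoxKu70, from 7.27 FPKM for POX_f08130 to 319 FPKM for POX_f08126, with a median of 32.5 FPKM over the 16 tested IDs. FPKM is corrected for transcript length, so these levels can be set side by side. POX_f08126 was the most abundant of the block in both strains. The PoxKu70 libraries had 311, 307 and 340 FPKM and the mutant libraries 109, 113 and 143 FPKM. It lay on the 538th place among all genes in PoxKu70 and on the 1491st in the mutant. Its log2 change of -1.39 (SE 0.14) was the smallest of the block, close to POX_f08123 at -1.45 (SE 0.23) and POX_f08120 at -1.48 (SE 0.15). That rank depended on the setting. Under quantile normalization POX_f08126 was at -1.59 and POX_f08123 at -1.331. With a pseudocount of 5 the values were -1.363 and -1.156, and without PoxKu70 replicate 3 they were -1.345 and -1.216.

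The next 3 genes in the level order of PoxKu70 were lowered far more. POX_f08115 had 225, 180 and 197 FPKM in PoxKu70 against 10.4, 9.19 and 14.5 FPKM in the mutant, a log2 change of -4.04 (SE 0.18). POX_f08128 had 136, 112 and 157 FPKM against 10.2, 11.4 and 11.9 FPKM, a log2 change of -3.48 (SE 0.15). POX_f08125, the direct neighbour of POX_f08126, had 115, 91.7 and 127 FPKM against 13.6, 12.8 and 18.4 FPKM, a log2 change of -2.82 (SE 0.18). These 3 genes kept 5.67%, 8.25% and 13.4% of their PoxKu70 means, where POX_f08126 kept 38.1%. In each of them every mutant library was far below the lowest PoxKu70 library.

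The share of its PoxKu70 level that a gene kept in the mutant ran from 0.375% to 38.1% over the block, with a median of 10.7%. From POX_f08114 to POX_f08120 the share went from 4.09% to 30.6%, and the next gene, POX_f08121, kept the least of all. Below 5% were POX_f08114, POX_f08121 and POX_f08129, and between 5% and 10% lay POX_f08115, POX_f08124, POX_f08127 and POX_f08128. The 4 genes POX_f08117, POX_f08118, POX_f08122 and POX_f08125 kept 10% to 20%. The remaining 5 genes, POX_f08119, POX_f08120, POX_f08123, POX_f08126 and POX_f08130, kept 20% to 40%.

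POX_f08121 was the gene brought closest to silence. Its level was 68.6, 68.9 and 73.4 FPKM in PoxKu70 and 0.36, 0.12 and 0.31 FPKM in the mutant, a mean 267-fold lower. The log2 change of -5.82 (SE 0.15), which the pseudocount of 1 makes smaller than the fold, was the 34th most negative of the 8448 tested genes. Mutant values this low rest on few reads. The gene beside it, POX_f08120, was among those that kept most. It was at 12.3, 11.2 and 12.1 FPKM in PoxKu70 and at 3.25, 4.09 and 3.57 FPKM in the mutant, 30.6% of the PoxKu70 mean. The 2 neighbours therefore changed order: POX_f08121 was above POX_f08120 in every PoxKu70 library and below it in every mutant library.

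Both other genes below 5% varied little between PoxKu70 libraries and lay near the ends of the block. POX_f08114, its first gene, was at 68.4, 72.4 and 74.6 FPKM in PoxKu70 and at 2.83, 3.42 and 2.55 FPKM in mutant libraries (log2 change -4.22, SE 0.14). POX_f08129, its last but one, was at 32.1, 34.7 and 33.1 FPKM against 0.91, 1.81 and 1.61 FPKM (log2 change -3.83, SE 0.18). Neither came near an overlap between the strains. POX_f08123, next to POX_f08122, was the second in share kept after POX_f08126. It had 25.8, 17.7 and 35.2 FPKM in PoxKu70 and 8.65, 8.20 and 9.10 FPKM in the mutant, or 33.0% of the mean, with a log2 change of -1.45 (SE 0.23). Its 3 mutant libraries lay close together while its PoxKu70 libraries spanned a wide range.

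Between these extremes lay POX_f08117, POX_f08118, POX_f08119, POX_f08122, POX_f08124 and POX_f08127, and the last gene of the block, POX_f08130. POX_f08117 was the most abundant of them, at 77.6 ± 10.6 FPKM in PoxKu70 and 8.46 ± 1.37 FPKM in the mutant (SD, n = 3 each). POX_f08124 was the lowest in the mutant, at 0.70 ± 0.34 FPKM against 10.2 ± 1.54 FPKM (SD, n = 3 each). In all, 14 of the 16 tested genes still averaged at least 1 FPKM in the mutant, and POX_f08121 and POX_f08124 did not. At 10 FPKM or more, 14 genes were left in PoxKu70 and 4 in the mutant, namely POX_f08126, POX_f08125, POX_f08115 and POX_f08128.

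**Figure D2:**
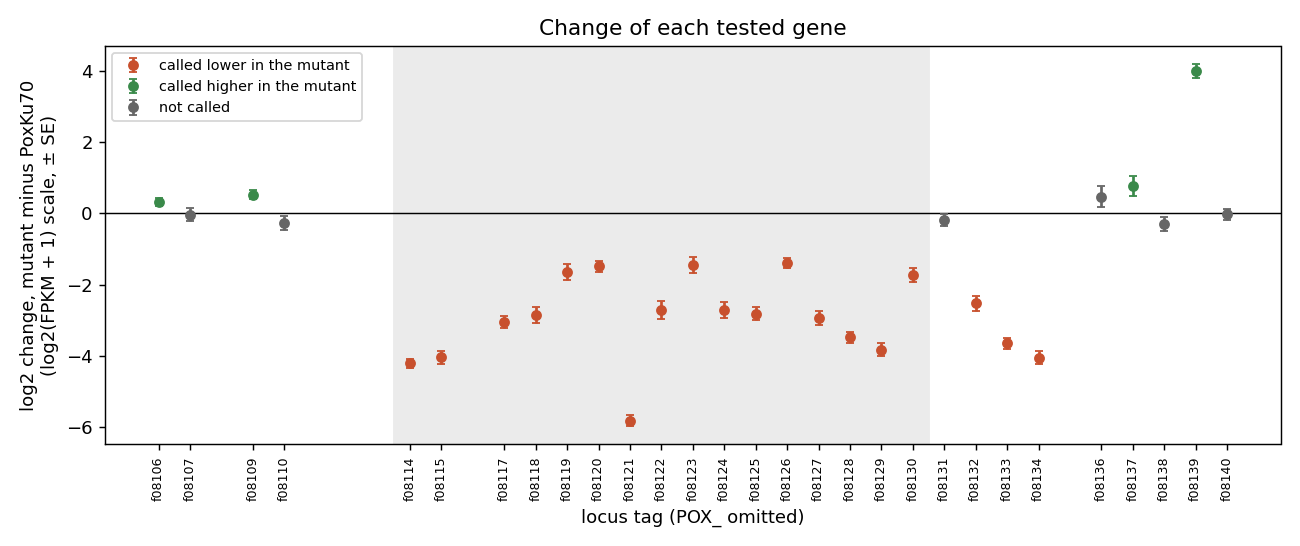
Log2 change of each tested gene (mutant minus PoxKu70, log2(FPKM + 1) scale); points are limma estimates, bars 1 standard error, colours give the call, and the block is shaded. Block genes lie between -5.82 and -1.39, POX_f08131 lies at -0.20, POX_f08132 to POX_f08134 lie between -4.06 and -2.53, and POX_f08139 lies at 4.00.

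POX_f08126, already the most abundant gene of the block in PoxKu70, also kept the highest share and dominated what was left of the block. It contributed 27.7 ± 1.73% of the summed FPKM in PoxKu70 and 61.9 ± 0.63% in the mutant (SD, n = 3 each). Its share was 26.1% to 29.6% in the PoxKu70 libraries and 61.3% to 62.5% in the mutant libraries, with no overlap. POX_f08115, the second gene of PoxKu70, went from 17.4 ± 1.57% to 5.74 ± 0.65% (SD, n = 3 each). POX_f08123 went the other way, from 2.23 ± 0.56% to 4.44 ± 0.44% (SD, n = 3 each). Without POX_f08126 the sum of the block was 838 ± 93.4 FPKM in PoxKu70 and 74.7 ± 9.68 FPKM in the mutant (SD, n = 3 each), so that 8.91% was kept in place of 17.0%.

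**Figure D3:**
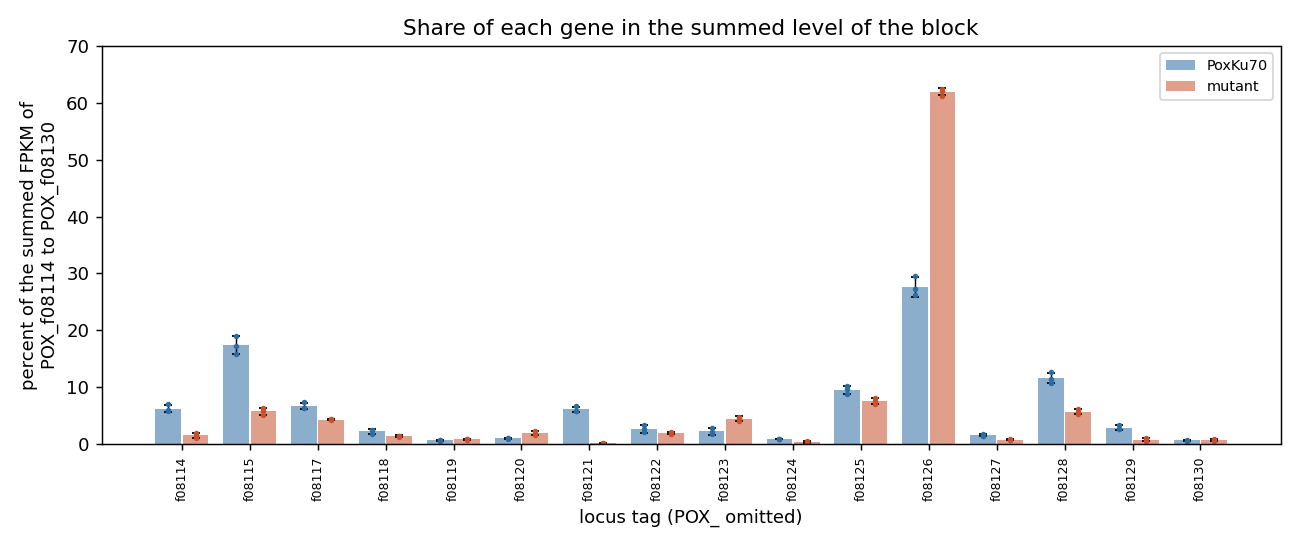
Share of each tested gene in the summed FPKM of the block, in percent; bars are means of 3 libraries, error bars are SD and points are single libraries. POX_f08126 stands at 27.7% in PoxKu70 and 61.9% in the mutant, and no other gene passes 10% in the mutant.

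In PoxKu70 the level order of the 16 genes began with POX_f08126, POX_f08115, POX_f08128, POX_f08125, POX_f08117, POX_f08114 and POX_f08121. Of its 15 pairs of neighbours in order, 6 had no overlap between their libraries and 9 overlapped. Without PoxKu70 replicate 2, where fewer libraries can overlap, 11 had no overlap. With all libraries scaled to equal FPKM sums (TPM), 4 had none. The first 3 places were not all separate from the fourth, since POX_f08128 overlapped POX_f08125, and the libraries of POX_f08117, POX_f08114 and POX_f08121 overlapped from one to the next. All 3 stood clear above POX_f08129, the next in order, at 33.3 FPKM in the mean against 70.3 FPKM for POX_f08121. In the mutant, 5 of the 15 pairs were separate. The widest step was from POX_f08126, at 122 FPKM, to POX_f08125, at 14.9 FPKM, and the last was from POX_f08124, at 0.70 FPKM, to POX_f08121, at 0.26 FPKM.

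The left border could not be placed at a single gene, because the IDs just outside the block were hardly expressed in either strain. POX_f08113, the first ID outside, was at 0.79, 0.56 and 0.46 FPKM in PoxKu70 and was listed at 0 in all 3 mutant libraries. It was too low to be tested, as were POX_f08111, with 0, 2.00 and 0 FPKM in PoxKu70 and 1.93, 0.70 and 0 FPKM in the mutant, and POX_f08108, which stayed below 1 FPKM in every library. POX_f08105 was listed at 0 in all 6 libraries. In the RefSeq table the space between POX_f08111 and POX_f08113 is the widest between neighbours of the whole stretch.

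Further left, none of the 4 tested genes was called lower in the mutant with FPKM as deposited. POX_f08110 was at 5.28, 4.17 and 5.17 FPKM in PoxKu70 and at 3.37, 3.61 and 4.63 FPKM in the mutant, which overlap; under TPM scaling, with equal FPKM sums in all libraries, it was called lower at -0.58. POX_f08109 was called higher, with 19.5, 19.1 and 16.4 FPKM in PoxKu70 against 24.0, 28.4 and 28.3 FPKM (log2 change 0.53, SE 0.14; 0.17 and not called under TPM scaling). POX_f08106 was called higher too, with 161, 162 and 159 FPKM against 196, 194 and 217 FPKM (log2 change 0.33, SE 0.11; -0.049 and not called under TPM scaling). That call was lost when any one of the 6 libraries was left out, with log2 changes of 0.28 to 0.36. POX_f08107, at 47.7 ± 7.68 and 46.7 ± 8.87 FPKM (SD, n = 3 each), overlapped between the strains. Of these 4 IDs, 2 were called higher, against 30.5% of all tested genes.

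On the right, the block ended at a gene with much higher expression than its neighbours in both strains. POX_f08130, the last ID inside, was at 6.88, 7.67 and 7.25 FPKM in PoxKu70 and at 1.70, 1.12 and 1.69 FPKM in mutant libraries (log2 change -1.73, SE 0.19). POX_f08131, the first outside, was at 178, 133 and 146 FPKM in PoxKu70 and at 131, 113 and 155 FPKM in mutant libraries (log2 change -0.20, SE 0.17). The 2 strains overlapped for POX_f08131, and it kept 87.3% of its PoxKu70 mean. It was not called with FPKM as deposited. When all libraries were scaled to equal FPKM sums (TPM), the median of all tested genes moved from -0.0089 to -0.36, and POX_f08131 was called lower at -0.57.

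Lower expression resumed directly beyond POX_f08131. POX_f08132 was at 18.0, 14.2 and 21.5 FPKM in PoxKu70 and at 1.92, 2.09 and 2.74 FPKM in mutant libraries (log2 change -2.53, SE 0.20). POX_f08133 was at 31.1, 27.8 and 30.3 FPKM against 1.16, 1.64 and 1.55 FPKM (log2 change -3.65, SE 0.15). POX_f08134 was at 32.8, 29.5 and 31.8 FPKM against 0.99, 0.60 and 1.30 FPKM (log2 change -4.06, SE 0.18). None of the 3 overlapped between the strains, and they kept 12.6%, 4.88% and 3.07% of their PoxKu70 means, within the range of the block. Together they went from 78.9 ± 6.54 to 4.66 ± 0.81 FPKM (SD, n = 3 each). A stretch from POX_f08114 to POX_f08134 thus held 21 IDs, of which 19 were called lower, POX_f08131 was not called and POX_f08116 was not tested. This extension was chosen by those calls, so the count is no more than a description beside the 30.0% of all tested genes called lower. Its sum with POX_f08131 was 4.16-fold lower in the mutant, and without it 6.15-fold lower.

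Past POX_f08134 no further ID up to POX_f08140 was called lower with FPKM as deposited; under TPM scaling POX_f08138 and POX_f08140 were, at -0.66 and -0.39, where the median of all tested genes was -0.36. POX_f08135 was listed at 0 in 5 libraries and at 0.81 FPKM in mutant replicate 3. POX_f08139 stood out in the opposite direction, with 2.56, 2.25 and 1.49 FPKM in PoxKu70 and 38.6, 50.3 and 56.8 FPKM in the mutant. Its mean was 23.1-fold higher in the mutant (log2 change 4.00, SE 0.20), and its 2 neighbours were not called. Those were POX_f08138, at 99.9 ± 25.3 and 79.8 ± 4.48 FPKM, and POX_f08140, at 29.2 ± 4.34 and 28.5 ± 2.80 FPKM (PoxKu70 and mutant, SD, n = 3 each).

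POX_f08137 was called higher at 1.77, 2.42 and 2.98 FPKM in PoxKu70 against 7.16, 3.72 and 3.91 FPKM (log2 change 0.78, SE 0.27). That call was lost under TPM scaling, at 0.49, with no filter on low values, with the replicate block, and without PoxKu70 replicate 1, PoxKu70 replicate 2 or mutant replicate 1, at 0.64, 0.79 and 0.52. POX_f08136 was at 40.2 ± 7.89 and 58.5 ± 21.3 FPKM (PoxKu70 and mutant, SD, n = 3 each) and overlapped; it was called higher, at 0.81, once mutant replicate 3 was left out. POX_f08138 was called lower, at -0.49, once PoxKu70 replicate 3 was left out. Over all 10 right-flank IDs, 9 were tested, 3 were called lower and 2 higher, against 30.0% and 30.5% of all tested genes. Neighbouring genes can share reads where transcripts overlap, and neither the counting tool nor its use of strand is given in the sources used here.

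The spread between libraries of the same strain split the lower genes into a steady and a variable set. It played no part in the choice of the block. POX_f08132 to POX_f08134, however, were added by their calls, which depend on that spread. The coefficient of variation over the 3 PoxKu70 libraries was 3.84% to 5.80% for 8 of the 19 lower genes and 11.4% to 34.1% for the other 11, with none between 6% and 11%. These limits were set after the values were seen. Of all tested genes with PoxKu70 means within the range of the block, 19.8% were below 6%, 28.0% between and 52.2% above. The steady set was POX_f08114, POX_f08120, POX_f08121, POX_f08126, POX_f08129, POX_f08130, POX_f08133 and POX_f08134. The variable set was made up of POX_f08115, POX_f08117 to POX_f08119, POX_f08122 to POX_f08125, POX_f08127, POX_f08128 and POX_f08132. Along the chromosome the members of both sets were interspersed, singly or in short runs. Whether this order differs from a random one was not tested.

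The variable genes shared a low PoxKu70 replicate 2 but not the order of the other libraries. Replicate 2 had the lowest value of its strain in 11 of 11 of them, at 57.7% to 85.1% of the mean of replicates 1 and 3. It was lowest in 4 of the 8 steady genes and for 42.4% of all tested genes. How far replicate 2 lay from the others in each set follows from the split itself, which was made on these same libraries. The 42.4% covers genes of any spread, so it is no match for genes picked by their spread. All genes share the same libraries, so the counts describe single libraries and are not separate observations. The highest library differed among the variable genes. POX_f08115, POX_f08117 and POX_f08127 were highest in replicate 1, at 112%, 113% and 116% of their PoxKu70 means. POX_f08122, POX_f08123 and POX_f08132 were highest in replicate 3, at 135%, 134% and 120%. So were POX_f08118, POX_f08119, POX_f08125 and POX_f08128, at 119%, 122%, 114% and 116%. For POX_f08124, replicates 1 and 3 were both at 109%. POX_f08122 and POX_f08123, which adjoin, were the most variable, with 30.9, 21.2 and 42.8 FPKM for POX_f08122 in PoxKu70 and the values given above for POX_f08123. POX_f08118 and POX_f08119, also adjoining, were at 70.2% and 70.6% of their PoxKu70 means in replicate 2. In the mutant, replicate 3 had the highest value in 10 of the 11 variable genes and in 2 of the 8 steady ones, against 48.8% of all tested genes. Over the 16 tested block genes this depended on scaling. Replicate 3 was highest in 10 with FPKM as deposited, in 9 under TPM or median-ratio scaling and in 7 under quantile normalization. The share over all genes was not computed under these scalings. PoxKu70 replicate 2 also had the highest estimated depth, 1.89 times that of mutant replicate 1; the part of depth in this pattern was not tested.

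**Figure D4:**
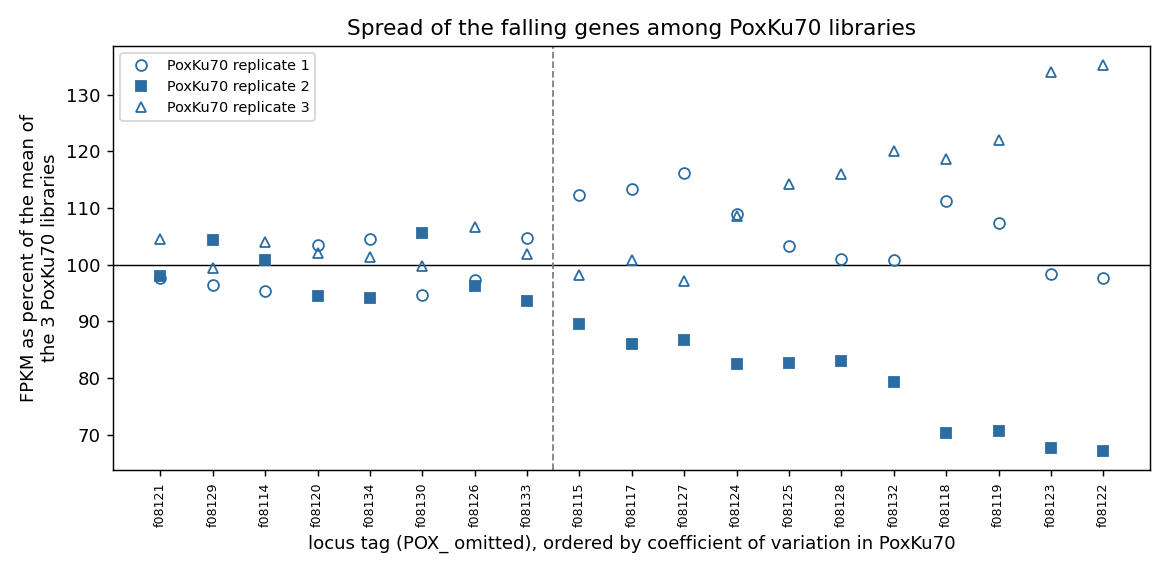
FPKM of each lower gene in the 3 PoxKu70 libraries, as percent of their mean, ordered by coefficient of variation from left to right; the dashed line separates the 8 steady genes from the 11 variable ones. PoxKu70 replicate 2 (filled squares) is the lowest library for all 11 genes on the right.

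The shares kept in the mutant overlapped between steady and variable genes. The steady genes included both the highest share, 38.1% for POX_f08126, and the lowest, 0.375% for POX_f08121, with a median of 4.61%. The variable genes kept 5.67% to 33.0%, with a median of 10.9%. Over the 16 tested genes of the block the median coefficient of variation was 14.3% in PoxKu70 and 20.2% in the mutant, where the medians over all tested genes were 12.6% and 15.0%. These medians were not matched for level. In the mutant the median level was 3.3 FPKM over the block and 29.1 FPKM over all tested genes, so its 2 spreads are not like for like.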

How the data were processed

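Poly(A) RNA of 3 PoxKu70 and 3 POX_a00954 mutant libraries was measured. The authors deposited FPKM per gene and library, with 2 decimals, per the file headers. HISAT2 and bcl2fastq, versions not named, were used per the submitters' processing notes; counter, genome build and annotation: not given in the sources used here. FPKM has the total of its library in the denominator. Without a stated build, the RefSeq table (9718 of 9822 IDs matched) served only for neighbours and no coordinates are given.

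Values were analysed as log2(FPKM + 1) in limma 3.58.1 (R 4.3.3; lmFit, eBayes with intensity trend; two-sided, genotype as the only term, 6 libraries, Benjamini-Hochberg over the 8448 genes averaging at least 1 FPKM). The fit was run on simulated data in which changes were planted in a few well-expressed genes. It was not tested for widespread changes or for changed genes of low level. Means, shares and coefficients of variation are of plain FPKM (Python 3.11.15, pandas 2.3.3). Relative depth is the most frequent ratio between libraries of values of genes listed at 0 in at least 2 libraries.

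The members, lists and tests were chosen with earlier results of these data known. Values of every library are given for the 4 block genes with the highest PoxKu70 mean, the 3 that kept the highest and the 3 that kept the lowest share, POX_f08126, the border IDs and called flanking IDs; any others were chosen after their values were seen. Alternatives were other pseudocounts, filters, scalings and eBayes settings, each library left out in turn, and a replicate block. Equal replicate numbers were not treated as pairs. The planned protein and promoter features were not analysed here.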

Additional observations from a re-analysis of the deposited data

How the results depend on the processing

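The block was chosen by the contrast of the strains, so its calls in other fits are a description from which nothing is read. Over all genes, 2040 to 3912 were called lower in the 16 alternative fits. The 14 block genes left by a minimum mean of 5 FPKM were called lower in that fit. In the other 15 of 16 fits all 16 tested block genes were called lower. Their median log2 change was -3.18 under TPM scaling, -3.20 with a pseudocount of 0.1, -2.00 with one of 5, and -2.99 to -2.72 with 1 library left out. The fold between the summed levels, 5.89, was 7.68 under TPM scaling and 5.63 to 6.42 with 1 library left out. It was 11.2 without POX_f08126 and 4.16 for POX_f08114 to POX_f08134, both chosen after seeing the data. The 6 pairs of neighbours in the PoxKu70 level order without overlap became 8 to 11 with 1 PoxKu70 library left out, where fewer libraries can overlap, and 11 without replicate 2. Under TPM scaling there were 4 such pairs, under quantile normalization 5 and under median-ratio scaling 6.

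TPM scaling gave 1656 higher and 3912 lower calls over all genes, so that 29.7% of calls were higher in place of 50.4%. Under it POX_f08106 reversed to -0.049 and lost its call, POX_f08109 and POX_f08137 lost theirs at 0.17 and 0.49, and POX_f08110, POX_f08131, POX_f08138 and POX_f08140 were called lower at -0.58, -0.57, -0.66 and -0.39, against a median of -0.36. POX_f08106 also lost its call under quantile normalization, at 0.14, and POX_f08137 with no filter on low values, at 0.78. Changes of sign in uncalled genes were POX_f08140 at 0.035 under quantile normalization and at -0.15 to 0.061 with 1 library left out, and POX_f08107 at -0.18 to 0.090 in those fits. The cause was not tested.

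Libraries with the same replicate number were not treated as pairs. Their deviations from the strain means had correlations of -0.064, -0.0029 and 0.15 across genes. Of 6 libraries, 2 were closest to the library of equal number. With so few libraries, these values show no clear pairing but cannot exclude it. The replicate block gave 5103 calls against 5107, with 16 block genes lower; POX_f08106 and POX_f08137 were not called in it. The separation of steady and variable genes stayed under TPM scaling, with at most 8.03% against at least 14.1%, and under median-ratio scaling, with 6.92% against 11.1%. Values under 1 FPKM rest on few reads. Protein and promoter features were not run.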
